A study of Mus musculus with 4 samples.

Results

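In activated mouse T cells, 6 genes of the type 2 immune programme were followed: the transcription factor genes Gata3 and Maf and the cytokine genes Il4, Il5, Il13 and Il24. They were taken by name from the deposited count table and make up 6 of its 22672 entries with a gene name. None of these 6 genes passed the threshold between genotypes in edgeR's quasi-likelihood test. Il24 came nearest, with a mean level of 5.52 CPM (reads scaled to library size) in the libraries labelled knockout against 1.55 CPM in the controls. Gata3 was at 28.9 to 37.7 CPM in all 4 libraries, whereas Il4 and Il5 were each represented by a few reads per library.

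Interleukins 4, 5 and 13 are the cytokines of type 2 helper cells. Interleukin 4 drives the switch of B cells to IgE, interleukin 5 supports eosinophils, and interleukin 13 acts on epithelium and mucus. GATA3 binds DNA words of the GATA type and opens the locus that holds these cytokine genes, and MAF activates Il4 in mouse helper cells. GATA3 also serves early T cell development and is present in cytotoxic T cells, which as effectors usually make interferon gamma and not type 2 cytokines. Il24 encodes a cytokine of the interleukin 10 family, also described in mouse helper cells as a gene induced by interleukin 4.

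The cells were splenic T cells of the Pmel mouse, whose transgenic T cell receptor recognises a peptide of gp100, a pigment cell protein. All 4 cultures received that peptide at 1 µg/ml and interleukin 2 at 100 U/ml for 72 h. The 2 control libraries carry the genotype WT control, and the other 2 carry SphK1 -/-, a deficiency of sphingosine kinase 1. They are named control 1, control 2, knockout 1 and knockout 2 after these labels, while age, sex and the structure of the knockout allele are not given in the sources used here. Whether the 2 libraries of a genotype came from separate animals is not stated, so p-values reflect sample-to-sample spread that may be technical in origin. The targeted gene ran against the labels. Sphk1 had 2 and 4 reads in control 1 and control 2 but 35 and 18 reads in knockout 1 and knockout 2, so every direction below refers to libraries by their label.

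Counts assigned to named genes numbered 43642723 in control 1, 45760330 in control 2, 50406140 in knockout 1 and 53500852 in knockout 2. The limit that 3 reads set was 0.0598 to 0.0639 CPM, and it covers counting error only. The cells carried the markers of cytotoxic T cells, with Cd8a at 658 to 863 CPM and Cd3e at 335 to 419 CPM. Cd4 was at 16.4 to 38.3 CPM, and B cell, dendritic cell and basophil transcripts were also present. Across all genes, 861 of 12758 tested genes passed the threshold, or 6.75%. In a separate fit of genes that share little sequence with other genes, 70 of 9093 passed. Of the 6 genes, Il4, Il13, Il24 and Il5 shared 0% of their 30-base words with other annotated genes, Gata3 0.378% and Maf 0.687%.

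Il4, Il13 and Il5 lie within 122125 bases of each other on chromosome 11, with the DNA repair gene Rad50 between Il13 and Il5. In GRCm38, Il4 spans chr11:53602982-53618669 and Il13 spans chr11:53631324-53634702, both on the minus strand, and Il5 spans chr11:53720794-53725106 on the plus strand. Sphk1 lies on the same chromosome, 62.8 megabases beyond Il5. Gata3 (chr2:9857078-9890034), Maf (chr8:115682942-115707794) and Il24 (chr1:130882074-130887454) lie elsewhere, all on the minus strand. Antisense genes cover part of the exons of 3 of the 6: 417 bases of Il5, 440 of Maf and 155 of Gata3. In all, other genes overlap 27.1% of the exonic bases of Il5, 5.34% of Maf and 5.83% of Gata3. Whether counting used strand is not given in the sources used here, so reads of these antisense partners cannot be told apart from those of the named genes.

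The start regions of the 3 clustered cytokine genes are shown because the other members include 2 factors that bind such DNA. Each window runs from 250 bases before to 50 bases after a start site, on the strand of the gene, as given by RefSeq for GRCm38.p6. They are chr11:53618616-53618915 for Il4, chr11:53634653-53634952 for Il13 and chr11:53720544-53720843 for Il5. Capitals mark GATA words (GATAA or GATAG, preceded by A or by T) and the MAF half-site TGCTGA, both searched on both strands.
Il4: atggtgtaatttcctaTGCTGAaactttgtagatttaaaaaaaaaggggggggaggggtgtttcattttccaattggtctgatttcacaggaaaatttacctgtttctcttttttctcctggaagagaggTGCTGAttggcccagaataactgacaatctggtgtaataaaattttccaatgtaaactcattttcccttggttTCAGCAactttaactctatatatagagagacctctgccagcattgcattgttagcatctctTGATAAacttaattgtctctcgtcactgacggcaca
Il13: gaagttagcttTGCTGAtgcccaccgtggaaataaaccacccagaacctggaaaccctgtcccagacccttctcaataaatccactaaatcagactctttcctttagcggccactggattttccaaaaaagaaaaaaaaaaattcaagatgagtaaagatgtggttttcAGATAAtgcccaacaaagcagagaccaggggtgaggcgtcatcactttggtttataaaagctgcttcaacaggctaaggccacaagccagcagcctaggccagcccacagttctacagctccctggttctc
Il5: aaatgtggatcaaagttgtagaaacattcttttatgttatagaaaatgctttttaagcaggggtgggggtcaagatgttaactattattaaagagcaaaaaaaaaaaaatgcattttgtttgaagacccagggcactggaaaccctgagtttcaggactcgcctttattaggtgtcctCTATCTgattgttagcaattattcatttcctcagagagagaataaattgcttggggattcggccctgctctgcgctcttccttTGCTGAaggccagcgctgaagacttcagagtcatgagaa
All 3 windows held at least 1 GATA word and at least 1 MAF half-site. In Il4 the GATA word began 15 bases into the transcript, and half-sites began at -234, -120 and -47. In Il13 the GATA word began at -81 and the half-site at -239. In Il5 the GATA word, read on the opposite strand, began at -72 and the half-site at position 12. Among 32851 RefSeq windows of the same length, 29.8% held a GATA word, 19.5% a MAF half-site and 6.37% both. These matches describe letters in a window and show no binding. A second Il4 window, at another annotated start, held 1 GATA word at -80 and no MAF half-site. For Il24 and Maf no window was available. The Gata3 window held a half-site at -90 and a GATA word at position 37.

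Gata3 differed least between libraries among the 6 genes. It was at 37.7 and 34.2 CPM in control 1 and control 2 and at 36.8 and 28.9 CPM in knockout 1 and knockout 2, so the groups overlapped. The log2 fold change, libraries labelled knockout over control, was -0.13 ± 0.15 (SE), with a 95% interval of -0.47 to 0.21 and an adjusted p of 0.764 in edgeR. That interval leaves out a log2 change of 1 in either direction. Without knockout 2 the log2 fold change was 0.031. Maf, which in helper cells acts beside GATA3 on Il4, stood at 1.32 and 1.71 CPM in the controls. It was at 3.28 CPM in knockout 1 but at 1.28 CPM in knockout 2, below both controls. Its log2 fold change was 0.58 ± 0.45 (SE; 95% interval -0.44 to 1.60, edgeR adjusted p = 0.629), and without knockout 1 it was -0.25.

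Il24 was higher in both libraries labelled knockout than in either control, with a wide gap between the 2. It had 86 reads in control 1 and 64 in control 2 (1.83 and 1.28 CPM). The counts were 392 in knockout 1 and 131 in knockout 2 (8.34 and 2.70 CPM). The log2 fold change was 1.83 ± 0.49 (SE), its 95% interval ran from 0.70 to 2.96, and the adjusted p was 0.0747 in edgeR (unadjusted p = 0.00561). The DESeq2 Wald test placed Il24 past the threshold with an adjusted p of 0.00517, where 8.17% of all tested genes passed. Limma-voom did not (adjusted p = 0.193), and neither did edgeR's robust fit (0.185) or the edgeR fit of genes sharing little sequence (0.287). Without knockout 1 the log2 fold change was 0.80 (edgeR adjusted p = 0.689), and without knockout 2 it was 2.42 (0.000219), in a fit that called 6.86% of all genes.

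Il13 varied more within the genotypes than between their means. It had 45 and 15 reads in control 1 and control 2, or 0.958 and 0.299 CPM. In knockout 1 and knockout 2 it had 81 and 25 reads, or 1.72 and 0.515 CPM, so the groups overlapped and the higher library of each was over 3 times the lower. The log2 fold change was 0.83 ± 0.67 (SE; 95% interval -0.69 to 2.36, edgeR adjusted p = 0.644). It was -0.28 without knockout 1 and 1.92 without control 1.

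Il5 and Il4 were close to the limit of detection. Il5 had 16 and 11 reads in the controls (0.341 and 0.219 CPM) and 17 and 5 reads in knockout 1 and knockout 2 (0.362 and 0.103 CPM). Its groups overlapped, and its log2 fold change of -0.27 ± 0.66 (SE; 95% interval -1.77 to 1.24) had an edgeR adjusted p of 0.899. Without knockout 1 its log2 fold change was -1.42, and without knockout 2 it was 0.37. Il4 had 14 and 11 reads in the controls (0.298 and 0.219 CPM) and 7 and 3 reads in knockout 1 and knockout 2 (0.149 and 0.0618 CPM). Both libraries labelled knockout thus lay below both controls, and knockout 2 was at the floor of 3 reads. The log2 fold change of Il4 was -1.28 ± 0.65 (SE; 95% interval -2.77 to 0.21, edgeR adjusted p = 0.434), and it was -2.02 without knockout 1 and -0.78 without knockout 2. The summed reads, 10 against 25, gave a ratio of 0.407 with an exact 95% counting interval of 0.174 to 0.877 that leaves out the spread between libraries.

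**Figure D1:**
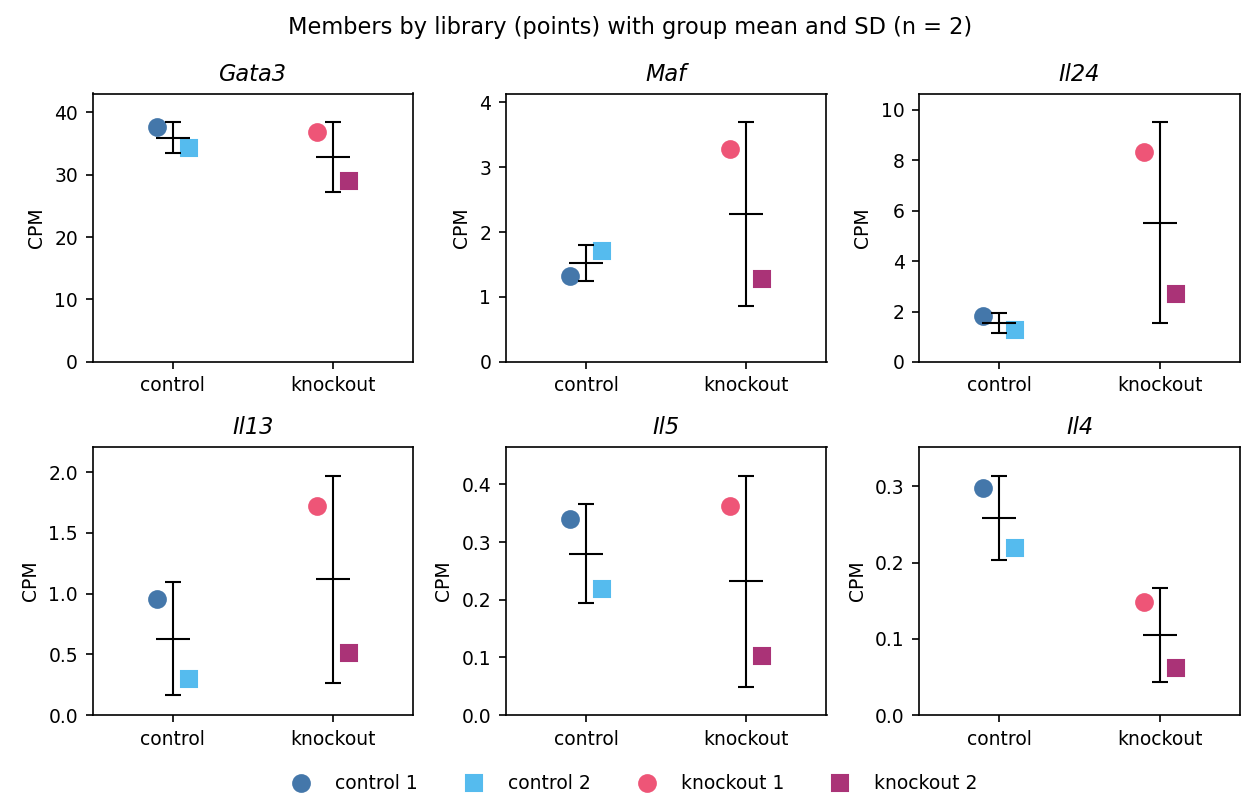
CPM of the 6 genes (vertical axis, linear, from 0) in the control libraries and the libraries labelled knockout, with each library as a point and black bars for the group mean and SD (n = 2). Knockout 1 lies above knockout 2 for every gene, from 36.8 against 28.9 CPM in Gata3 to 8.34 against 2.70 CPM in Il24.

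Over the 6 genes, edgeR called 0 of 6 at the adjusted threshold, against 6.75% of all tested genes. In the separate fit of genes sharing little sequence, which holds these genes except Il5, 0.770% of all genes were called. At the adjusted threshold DESeq2 called 1, Il24, and limma-voom 0 (8.17% and 6.54% of all tested genes). At an unadjusted p under 0.05 edgeR had 1, Il24. The share of all tested genes at an unadjusted p under 0.05 was not worked out. Counts at that cut, here and for the lists below, therefore have no background beside them. The groups did not overlap for 2 of the 6, Il24 and Il4, against 44.8% of all tested genes. Log2 fold changes were positive for 3 genes and negative for 3, with a median of 0.23 beside -0.021 over all tested genes. All 6 passed the filter on low counts. Il4 reached 10 reads only in the controls (14 and 11, against 7 and 3 in knockout 1 and knockout 2). Its place in the test thus rests on the group where it is higher, and its lack of overlap is no separate support. With 2 libraries against 2, an exact two-sided permutation test of a single gene cannot go below a p of 0.333.

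**Figure D2:**
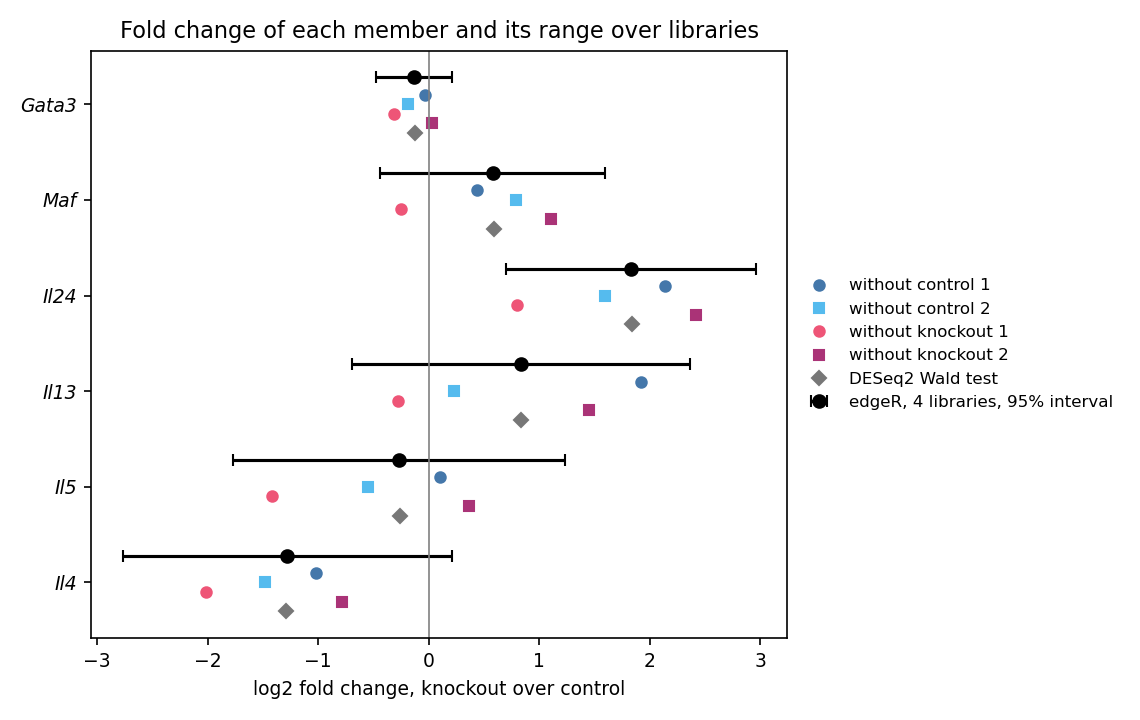
Log2 fold change (horizontal axis) of each gene in edgeR with all 4 libraries and its 95% interval (black), with each library left out in turn (coloured points) and in DESeq2 (grey). The Il24 interval runs from 0.70 to 2.96 and its value without knockout 1 is 0.80, while the intervals of the other 5 genes include 0.

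Between the 2 libraries labelled knockout, 5 of the 6 genes were over 2-fold higher in knockout 1. The exception was Gata3, at a ratio of 1.27. This pattern was noticed in the data and carries no test. Over all tested genes, 3.35% were over 2-fold higher in knockout 1 than in knockout 2, and 11.0% of the 3401 with a mean under 6 CPM were. Il4, Il5, Il13 and Maf lie well below that limit, and the share among genes at their own level was not worked out. The ratio of knockout 1 to knockout 2 was 3.09 for Il24, with an exact 95% counting interval of 2.53 to 3.80. It was 3.35 for Il13 (2.12 to 5.47), 2.57 for Maf (1.90 to 3.50) and 3.51 for Il5 (1.24 to 12.2). For Il4 it was 2.41, with a counting interval of 0.55 to 14.4 that includes equal levels. The control libraries were closer to each other, except in Il13, where control 1 was 3.20 times control 2 (1.75 to 6.19). For Il4 and Il5 that control ratio was 1.36 (0.57 to 3.31) and 1.55 (0.68 to 3.70). These counting intervals overlap those of knockout 1 over knockout 2, so the few reads do not settle the order for Il4 and Il5. All counting intervals given here leave out the spread between libraries, and none of them tests the pattern.

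Summed over their lists, genes of B cells, of dendritic cells with MHC class II, and of macrophages were also higher in knockout 1 than in knockout 2. B cell markers summed to 188 and 202 CPM in the controls, 406 CPM in knockout 1 and 196 CPM in knockout 2. All 8 markers were highest in knockout 1, as were 26.0% of all tested genes. Of these 8, Cd79a (a chain of the B cell receptor complex) and Ebf1 (a B cell transcription factor) rose in the libraries labelled knockout, by 1.48 and 1.73 on the log2 scale (edgeR adjusted p = 0.0236 and 0.0130). Cd79a, which shares 12.5% of its words with other genes, lost its call in DESeq2 (adjusted p = 0.0887), limma-voom (0.0553) and edgeR's robust fit (0.305). The Cd79a call was also lost without control 1 or control 2, and was kept without knockout 1 or knockout 2. Its log2 fold change was 1.49 without control 1, 1.51 without control 2, 0.77 without knockout 1 and 1.95 without knockout 2. The Ebf1 call was lost among genes sharing little sequence (0.0867), and likewise without control 1 (0.0726) or knockout 1 (0.0521). Dendritic cell and MHC class II genes summed to 601 and 514 CPM in the controls, 873 CPM in knockout 1 and 401 CPM in knockout 2. Of 8 tested, 6 were highest in knockout 1, beside 26.0% of all tested genes. Most of that sum came from Cd74, at 251, 227, 425 and 194 CPM in that order, and from H2-Aa, H2-Ab1 and H2-Eb1. Whether these MHC class II values and those of the B cell genes have 1 source was not tested. Itgax, Flt3 and Zbtb46 were above both controls in both libraries labelled knockout. Xcr1 overlapped between the groups, and Siglech, with at most 10 reads, was lower in the libraries labelled knockout. Macrophage and monocyte genes summed to 34.7 and 45.3 CPM in the controls, 95.9 CPM in knockout 1 and 50.8 CPM in knockout 2. Most of that sum was Mpeg1, at 23.4 and 30.8 CPM, then 65.9 and 32.4 CPM. The other 10 genes summed to 11.2 and 14.6 CPM, then 30.1 and 18.4 CPM. Csf1r (0.339 to 0.371 CPM) and Lyz2 (1.04 to 1.34 CPM) differed little between knockout 1 and knockout 2. The defining complement genes of macrophages, C1qa, C1qb and C1qc, reached at most 0.103 CPM. In these lists Flt3, a dendritic cell growth factor receptor, rose by 1.94 (0.0332), and Cd68, a lysosomal protein of macrophages, rose by 1.08 (0.0478). Both lost their calls without control 1 (0.160 and 0.187) or knockout 1 (0.379 and 0.361), and Flt3 also without control 2 (0.0643). Among genes sharing little sequence the adjusted p was 0.163 for Flt3 and 0.188 for Cd68. Without knockout 1 the log2 fold change of Cd68 was 0.65. The part of these cells in the values of the 6 genes was not tested. In bulk RNA, fewer cells of a type and less RNA per cell cannot be told apart.

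Cells that make type 2 cytokines themselves left small signals. Basophil, mast cell and eosinophil genes summed to 83.7 and 79.0 CPM in the controls, 105 CPM in knockout 1 and 67.8 CPM in knockout 2. Most of that sum came from Kit and Il3ra, which other cells also express. Mcpt8, a protease of mouse basophils, was at 1.81 and 1.51 CPM in the controls and 2.60 and 1.89 CPM in knockout 1 and knockout 2. Cpa3 and Prss34, of the same list, were at 1.38 to 1.81 and 0.700 to 1.04 CPM, and both overlapped between the groups. Log2 fold changes in the list were positive for 9 tested genes and negative for 2. The mast cell proteases Mcpt4 and Tpsb2 were at no more than 0.0213 CPM. Of the 11 tested genes of this list, 0 passed in edgeR, DESeq2 or limma-voom, and 1, the IgE receptor chain gene Ms4a2, had an unadjusted p under 0.05. Helper T cell genes summed to 98.5 and 105 CPM in the controls and 112 and 91.5 CPM in knockout 1 and knockout 2, with 0 of 5 past the threshold in any of these tools and 0 at an unadjusted p under 0.05. Genes of group 2 innate lymphoid cells summed to 3.45 and 3.71 CPM in the controls and 18.0 and 11.9 CPM in knockout 1 and knockout 2. Rora, a nuclear receptor gene that other lymphocytes also express, made up most of the latter sums, at 13.8 and 9.68 CPM. Rora rose by 2.88 ± 0.26 (SE, edgeR adjusted p = 0.000122). Il1rl1 and Il17rb, receptors for the alarmins interleukin 33 and interleukin 25, reached at most 1.57 and 0.255 CPM. Whether any of these cells supplied reads of Il4, Il5 or Il13 was not tested.

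Other lymphoid lists were examined for the same reason. Natural killer genes summed to 152 and 139 CPM in the controls and 194 and 217 CPM in knockout 1 and knockout 2. Most of that sum was Klrk1, an activating receptor gene that cytotoxic T cells also express, at 131 and 118 CPM in the controls and 131 and 177 CPM in knockout 1 and knockout 2. The other 9 genes summed to 21.8 and 20.4 CPM in the controls, 63.1 CPM in knockout 1 and 40.5 CPM in knockout 2. Of 8 tested, 7 were highest in knockout 1, beside 26.0% of all tested genes. An unadjusted p under 0.05 in edgeR was found for 7. DESeq2 called 3 and limma-voom 2 (8.17% and 6.54% of all tested genes). In edgeR the lectin-like receptor genes Klre1 (log2 fold change 1.93, edgeR adjusted p = 0.00133) and Klra7 (1.80, 0.000940) rose, and Klra7 shares 25.6% of its words with other genes. Innate-like T cell genes summed to 1294 to 1570 CPM over the 4 libraries. Il2rb, a receptor chain gene that activated cytotoxic T cells also express, gave 1215 to 1496 CPM of it, and the other 5 genes summed to 74.0 to 82.0 CPM. The list had 0 of 6 past the threshold in edgeR, DESeq2 or limma-voom and 2 at an unadjusted p under 0.05. Zbtb16, the transcription factor that defines invariant natural killer T cells, was at 0.199 to 1.09 CPM. Cytotoxic T cell genes summed to 6930 to 8658 CPM, with 0 of 7 past the threshold in these 3 tools and 1 at an unadjusted p under 0.05.

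**Figure D3:**
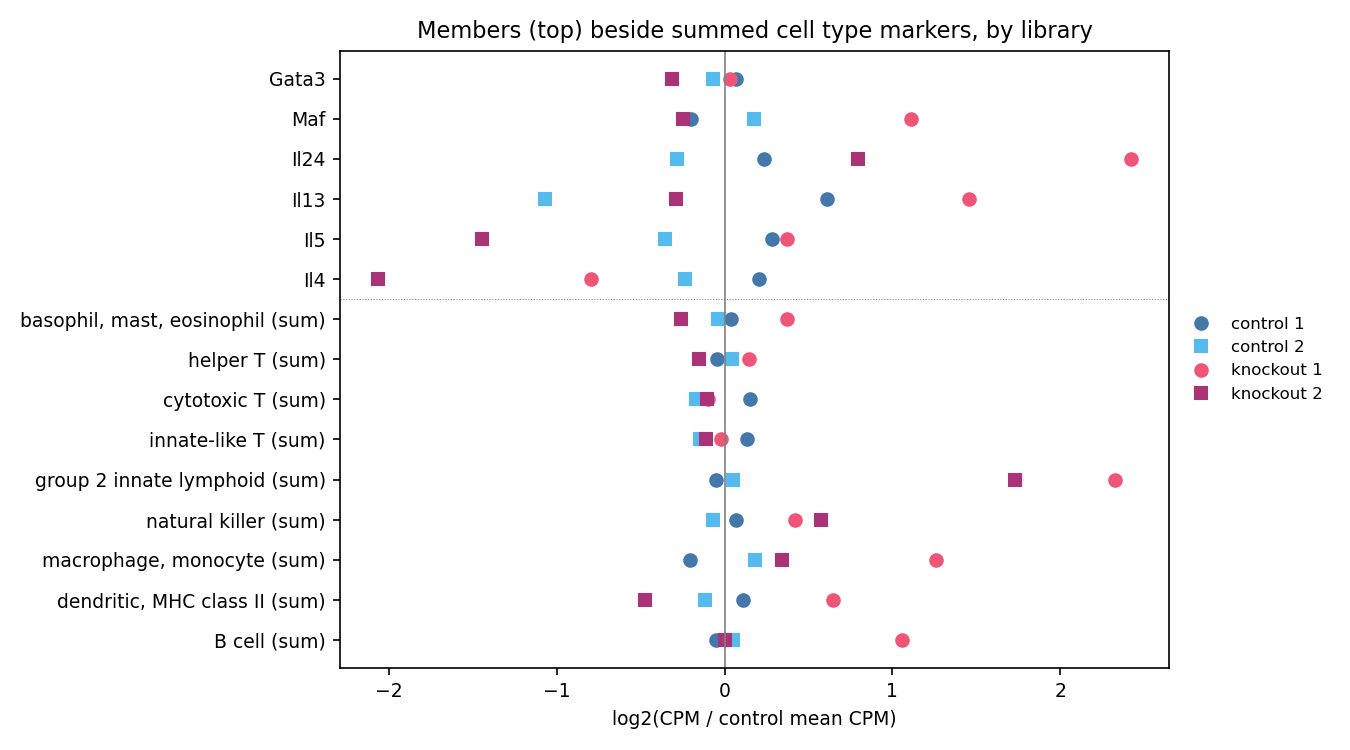
Log2 ratio of each library to the control mean (horizontal axis) for the 6 genes (top) and for summed markers of other cell types (bottom). Knockout 1 lies to the right of knockout 2 for all 6 genes and for the B cell sum (406 against 196 CPM). The natural killer sum is higher in knockout 2 (217 against 194 CPM), and without Klrk1 it is higher in knockout 1 (63.1 against 40.5 CPM).

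Per length, Gata3 was the highest of the 6 genes and Il4 the lowest. Over the 4 libraries Gata3 averaged 8.64 CPM per kilobase of annotated exon, and 24.3% of 22365 genes were at or above it. Eomes and Tbx21, the factors of cytotoxic and type 1 cells, averaged 9.68 and 21.2 CPM per kilobase, and the libraries of Eomes and Gata3 overlapped. Il24 followed at 2.55, Il13 at 0.725, Maf at 0.230, Il5 at 0.167 and Il4 at 0.148 CPM per kilobase. The share of genes at or above that level was 38.5% for Il24, 46.2% for Il13, 51.5% for Maf, 53.0% for Il5 and 53.5% for Il4. Adjacent genes of that series overlapped between libraries, apart from Gata3 and Il24. Ifng, the type 1 cytokine gene, averaged 65.3 CPM per kilobase. Maf has a long annotated exon set of 8241 bases, which lowers its level per length.

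**Figure D4:**
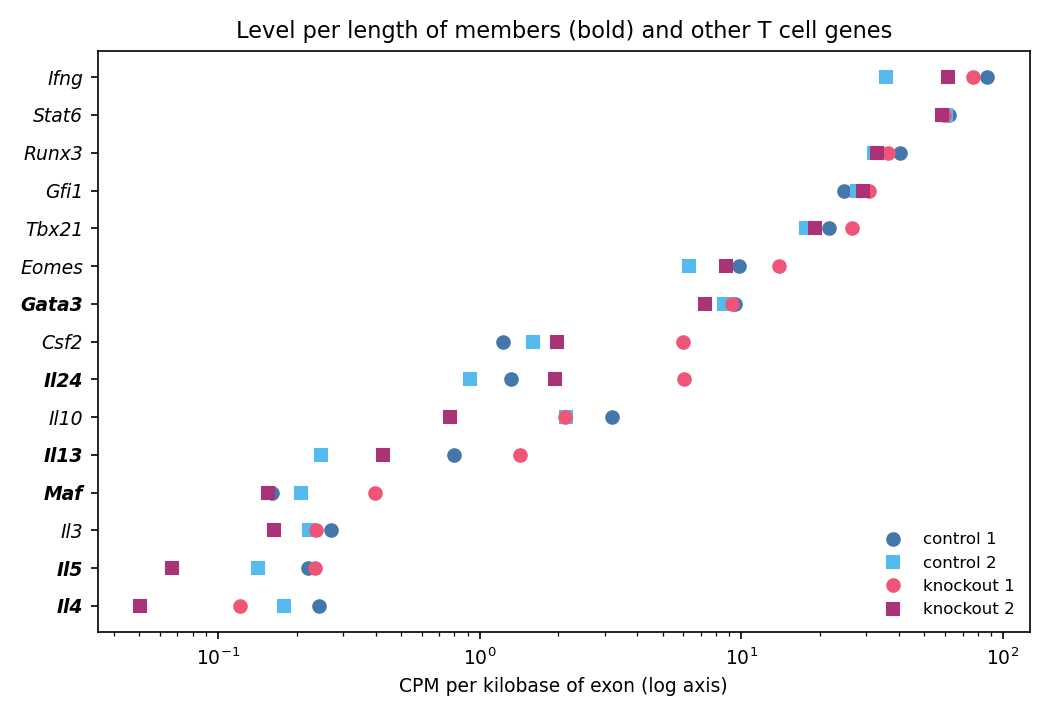
Level per length in CPM per kilobase of exon (horizontal log axis) of the 6 genes (bold) and other T cell genes, with 1 point per library. Il4, Il5 and Maf lie below 0.4 in all 4 libraries, Gata3 between 7.27 and 9.47, and Ifng above 35.

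Among 13 tested neighbours of the cytokine cluster, 0 passed the threshold in edgeR, DESeq2 or limma-voom. Unadjusted p was under 0.05 for 2, P4ha2 and Csf2, and the median log2 fold change was -0.10. Rad50 was at 128 and 143 CPM in the controls and 121 and 131 CPM in knockout 1 and knockout 2 (log2 fold change -0.10 ± 0.12, edgeR adjusted p = 0.764). Irf1, an interferon response factor next to Il5 in this list, had a log2 fold change of -0.0023 (0.996), with a sign that turned in DESeq2. Csf2, the gene of the growth factor GM-CSF, stood at 0.979 and 1.28 CPM in the controls, 4.79 CPM in knockout 1 and 1.59 CPM in knockout 2. Its log2 fold change of 1.49 ± 0.50 had an adjusted p of 0.162, without knockout 2 it was 2.08 (0.00325) and without knockout 1 it was 0.49 (1.00). Il3, a growth factor of basophils and mast cells, had 8 reads or fewer in each library and was not tested.

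**Figure D5:**
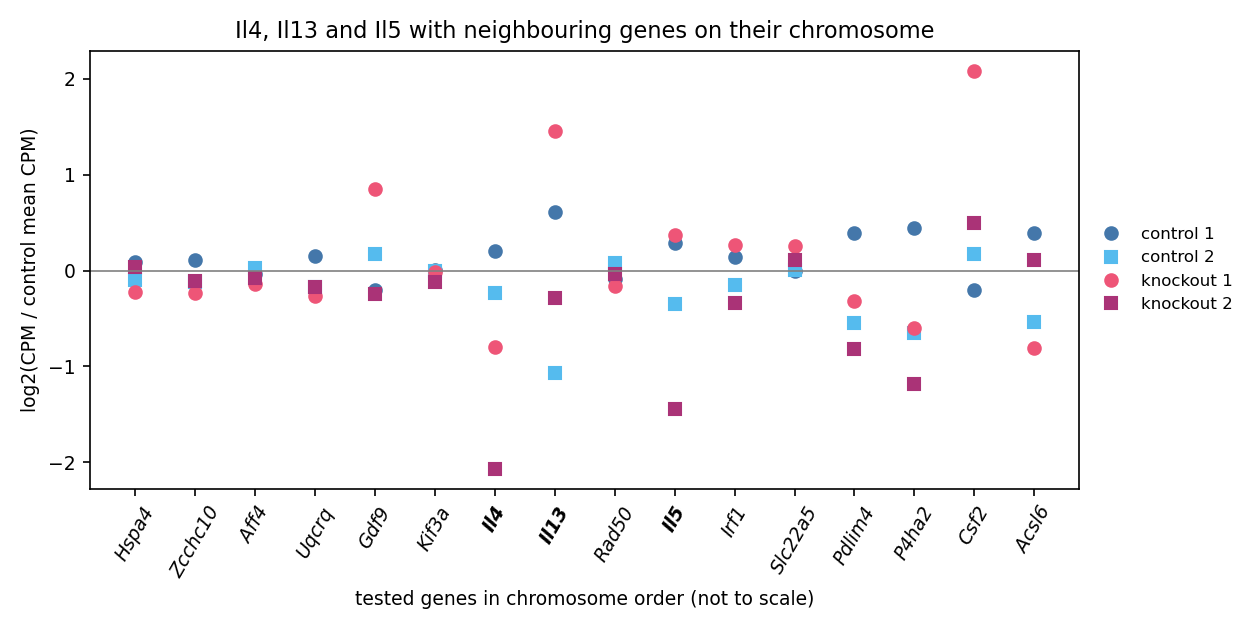
Log2 ratio of each library to the control mean (vertical axis) for the tested genes around Il4, Il13 and Il5 (bold), in chromosome order and not to scale. Il13 and Csf2 are highest in knockout 1, Il4 lies below 0 in both libraries labelled knockout, and Rad50 and Kif3a stay near 0 in all 4 libraries.

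Il24 lies among cytokine genes of the interleukin 10 family. Il10, an inhibitory cytokine gene that MAF also activates, was at 4.19 and 2.79 CPM in the controls and 2.79 and 1.01 CPM in knockout 1 and knockout 2. Its log2 fold change of -0.88 ± 0.46 (edgeR adjusted p = 0.446) had the opposite sign to that of Il24. Without knockout 1 it was -1.79 (0.0268), without knockout 2 -0.33 (0.823) and without control 1 -0.53 (0.896). Il19 and Il20 reached at most 0.106 and 0.0199 CPM. Of 8 tested neighbours of Il24, 0 passed in edgeR, DESeq2 or limma-voom and 0 had an unadjusted p under 0.05. Among the receptor chains that bind interleukin 24, Il20rb was at 1.52 to 3.38 CPM, and Il20ra and Il22ra1 had at most 3 reads in any library.

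Of 23 inducers and partners of the type 2 fate 1 rose and 0 fell in edgeR, beside 6.75% of all tested genes called, with a median log2 fold change of -0.0098. DESeq2 called 2, Notch2 and Rbpj, and limma-voom called 1, Rbpj. The gene that rose was Rbpj, the DNA-binding partner of Notch, at 213 and 157 CPM in the controls and 660 and 708 CPM in knockout 1 and knockout 2 (log2 fold change 1.89 ± 0.16, edgeR adjusted p = 7.90e-05). Rbpj shares 11.9% of its words with other genes, which keeps it out of the fit of genes sharing little sequence. The part of shared sequence in its values was not tested. Stat6, which relays the interleukin 4 signal to Gata3, stood at 270 ± 3.42 CPM in the controls and 259.8 ± 3.05 CPM in knockout 1 and knockout 2 (mean ± SD over 2 libraries). Its log2 fold change was -0.056 (adjusted p = 0.869). Gfi1, a repressor that supports growth of type 2 cells, had a log2 fold change of 0.19 (0.517) that was -0.050 with library totals alone.

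Of 20 restraints on the type 2 fate 0 passed in edgeR and limma-voom, while DESeq2 called 1, Id2, and 3 had an unadjusted p under 0.05 in edgeR. Their median log2 fold change was -0.016. Tbx21, which opposes GATA3, stood at 53.6 and 43.9 CPM in the controls and 66.0 and 47.6 CPM in knockout 1 and knockout 2 (log2 fold change 0.22 ± 0.17, adjusted p = 0.636), and its sign turned with library totals alone (-0.015). Ifng was at 113 and 46.2 CPM in the controls and 99.7 and 79.5 CPM in knockout 1 and knockout 2, with a log2 fold change of 0.17 (0.868). Without control 1 the latter was 0.99 (0.00993), without control 2 -0.33 (0.290), and with library totals alone -0.058.

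Of 12 tested receptor genes for these cytokines 0 passed in edgeR, DESeq2 or limma-voom, beside 6.75% of all tested genes in edgeR, and 3 had an unadjusted p under 0.05: Il5ra, Csf2rb and Csf2rb2. The median log2 fold change was 0.39. Il4ra, the receptor chain shared by interleukins 4 and 13, was at 252 and 280 CPM in the controls and 333 and 248 CPM in knockout 1 and knockout 2 (log2 fold change 0.13, edgeR adjusted p = 0.777; -0.11 with library totals alone). Il5ra, the receptor chain specific for interleukin 5, was at 0.319 and 0.777 CPM in the controls and 2.00 and 1.40 CPM in knockout 1 and knockout 2 (log2 fold change 1.62 ± 0.46, adjusted p = 0.0959).

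Of 16 tested surface receptors and other cytokines of type 2 cells 1 rose and 0 fell, with a median log2 fold change of 0.12. DESeq2 called 2, Ccl22 and Furin, and limma-voom 0, while 6 had an unadjusted p under 0.05 in edgeR (Tnfsf11, Csf2, Ccl22, Il6, Furin and Pparg). The gene that rose was Ccl22, a chemokine that attracts cells with CCR4, at 3.70 and 5.44 CPM in the controls and 21.4 and 9.84 CPM in knockout 1 and knockout 2 (log2 fold change 1.77 ± 0.36, edgeR adjusted p = 0.0188). Activated dendritic cells also make it, and the call was lost without control 1 (0.102) or knockout 1 (0.0527), where the log2 fold change was 1.11, and among genes sharing little sequence (0.115). Il9, a further type 2 cytokine gene, had 0 reads in all 4 libraries. Within the families of the 2 factors, Gata1 and Gata2 were at 1.89 to 3.08 CPM and the small MAF genes Maff, Mafg and Mafk at 6.67 to 34.1 CPM. Of 7 tested family members 0 passed in edgeR, DESeq2 or limma-voom and 0 had an unadjusted p under 0.05, with a median log2 fold change of -0.062.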

How the data were processed

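Raw counts per gene were deposited by the authors for 4 libraries, in 1 table. The submitters' processing notes list build GRCm38 with DESeq2 1.14.1, HTSeq 0.6.1p1, TopHat2 2.0.13 and cutadapt 1.11, while the role of each tool, the annotation and the strand setting are not given in the sources used here. Of 23419 entries, 27 with a date in place of a name (0.261% to 0.312% of a library) and 720 with no name (1.13% and 1.17% of the control libraries, no value in those labelled knockout) were left out. Groups came from the sample titles. Genes were tested with edgeR 4.0.16 in R 4.3.3 (quasi-likelihood F test after TMM scaling and filterByExpr at 10 reads; adjusted p by Benjamini-Hochberg over 12758 genes; threshold 0.05), a procedure tested on simulated data. SE is the absolute log2 fold change over the square root of F. CPM uses TMM-scaled library sizes. Alternatives included DESeq2 1.42.0 and limma 3.58.1. Shared 30-base words, exon lengths and positions came from GENCODE M21, to which 21753 named genes matched directly and 612 by synonym; genes with at most 5% shared words and 10% exonic overlap count as sharing little sequence. The members and lists were chosen with earlier results of these data known. Named genes were the members, 10 preset genes and all listed genes past the threshold; other listed genes given with values were chosen after their values were seen. Genes of like pattern were to be named only for members past it.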

Additional observations from a re-analysis of the deposited data

How the results depend on the processing

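Of the 6 genes, 5 stayed on the same side of the threshold under all alternatives run, which were 12 for each gene except Il5 (11, since its overlap keeps it out of the genes sharing little sequence). Il24 was past it with DESeq2 (log2 fold change 1.84), with the replicate block (1.65, adjusted p = 0.000967, in a fit that called 8.78% of all genes) and without knockout 2. Leaving out each library in turn moved the log2 fold change from -0.31 to 0.031 for Gata3, -0.25 to 1.11 for Maf, -2.02 to -0.78 for Il4, -1.42 to 0.37 for Il5, -0.28 to 1.92 for Il13 and 0.80 to 2.42 for Il24. Over the table, 645 to 825 genes were higher and 87 to 230 lower in these fits. The number lower was 1432 with library totals alone, which moved the median of all genes from -0.021 to -0.26, and 178 with the replicate block. Among genes sharing little sequence 61 were higher and 9 lower. The replicate numbers are not said to pair libraries, and deviations of same-numbered libraries had a correlation of -0.037 over genes, so the block result is given only here.

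Signs of other named genes near 0 also turned. Irf1 had 0.0062 in DESeq2, 0.034 among genes sharing little sequence and -0.34 to 0.27 with a library left out. With a library left out, Il4ra ranged from -0.099 to 0.32, Tbx21 from -0.034 to 0.44 and Ifng from -0.33 to 0.99. With library totals alone Il4ra had -0.11, Tbx21 -0.015, Ifng -0.058 and Gfi1 -0.050. Calls of other cell types' genes and of Ccl22 were lost with limma-voom (Ccl22, Cd68, Flt3, Cd79a), the robust fit (Ccl22, Cd68, Cd79a), library totals alone (Cd68), DESeq2 (Cd79a) and genes sharing little sequence (Ccl22, Cd68, Flt3, Ebf1). The causes were not tested. Depth limits Il4 and Il5 most, with 35 and 49 reads over the 4 libraries.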
